A study of Bos taurus with 18 samples.

Results

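GNLY, PRF1, CTSW, NCR1, KLRK1 and KLRB1 are genes of natural killer (NK) cells and cytotoxic T lymphocytes, and their levels are described here in cells from cow's milk. They were taken by name: every probe set that the array annotation gives exactly 1 of these symbols was used, whatever its values. That rule found 8 probe sets for the 6 genes, among 24016 probe sets tested and 9155 named genes on the array. CTSW and KLRB1 have 2 probe sets each and the other genes 1. The 6 mastitis arrays came from cows with an inflammation of the udder and the 6 endometritis arrays from cows with an inflammation of the uterine lining. The labels give both diseased groups lactations 1 to 8 and sampling 10 to 220 days after calving, with no age. The 6 healthy arrays came from cows of 2 to 4 years with under 100000 somatic cells per ml of milk, most of them in lactations 1 to 3 and sampled 10 to 100 days after calving. Of the healthy cows, 1 was in lactation 4 and 1 in lactation 8, and that lactation number cannot be reached at the stated ages. The samples came from dairy farms and veterinary clinics, with 1 array each and a number of its own in every title, and the sources used here give no breed and no pathogen. The labels do not state that each sample is a different cow, so p-values measure only the spread between these samples.

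NK cells and cytotoxic T cells kill infected or altered cells by releasing granules onto them. Perforin makes pores in the target's membrane, granzymes enter through them and start cell death, and granulysin, called NK-lysin in cattle, also lyses bacteria. Activating receptors such as NKp46 and NKG2D on the killer cell help to trigger the release of the granules. In milk, lymphocytes share the cell pellet with macrophages, neutrophils and shed epithelial cells, and neutrophils flood the udder in mastitis.

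Values are log2 normalised intensities as deposited, so 1 unit stands for a 2-fold change. They pile up at a lower limit. The median of the whole table, 2.55, is called the floor here, and values at or under it have no order. Of the members' values (8 probe sets on 18 arrays), 62 (43.1%) were at or under the floor, against 50% of the values of all probe sets. The share was 18 of 48 in mastitis, 20 of 48 in endometritis and 24 of 48 in healthy. By gene, 5 of 18 arrays were at or under it for GNLY, 2 for PRF1, 4 for KLRK1 and 15 for NCR1, with 0 and 1 for the CTSW probe sets and 18 and 17 for those of KLRB1. Differences were tested with limma on all 24016 probe sets, and "called" means an adjusted p under 0.05. Because the arrays read bulk RNA, fewer cells of a type and less RNA per cell cannot be told apart. Levels of different probe sets are not set against each other.

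The markers of milk-secreting cells and of neutrophils were both above the floor, and their levels differed between the groups. Summed over 13 mammary secretory markers, linear intensity ran from 1560 to 19017 in mastitis, from 36727 to 111665 in endometritis and from 68824 to 109238 in healthy arrays. For 10 neutrophil markers the sums were 12836 to 35965 in mastitis, 412 to 3499 in endometritis and 697 to 3937 in healthy. Of these neutrophil markers 9 were higher in mastitis than in healthy and 9 higher than in endometritis, and of the secretory markers 12 were lower in each comparison. As a measure of RNA integrity, the 3′ minus the 5′ level of the GAPDH control ran from 0.08 to 0.71 in mastitis, 0.30 to 1.05 in endometritis and 0.35 to 1.52 in healthy arrays. What the numbers in the titles stand for is not given in the labels. They are up to 120 for 4 mastitis, 1 endometritis and 3 healthy samples and above 120 for 2, 5 and 3.

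**Figure D1:**
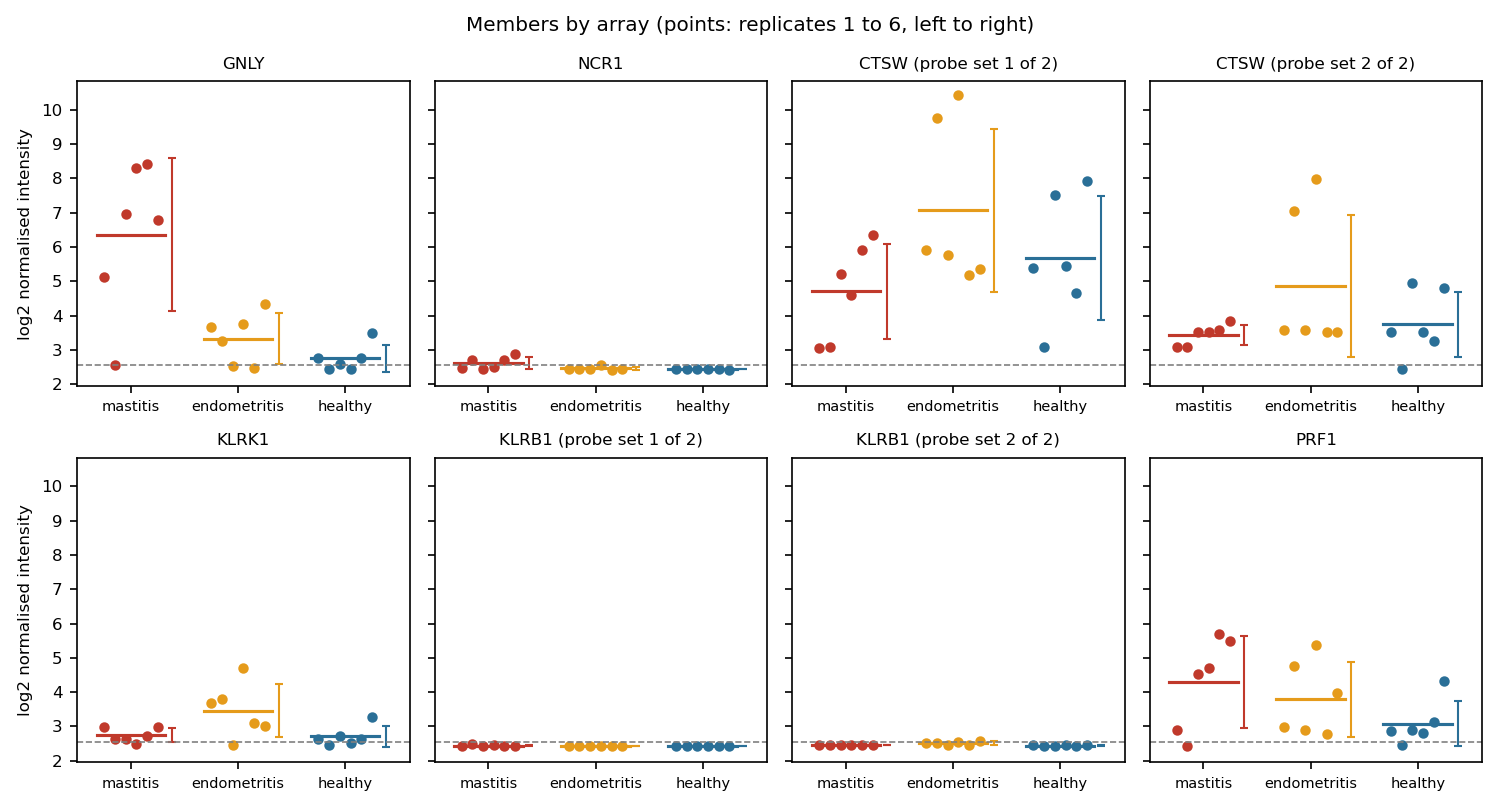
Log2 normalised intensity (vertical axis) of the 8 probe sets in mastitis, endometritis and healthy arrays, with 1 point per array, a bar at the group mean and the SD beside it (n = 6 per group). The dashed line is the floor of 2.55. GNLY is spread from 2.55 to 8.43 in mastitis, CTSW reaches 10.42 on an endometritis array, and both KLRB1 probe sets lie along the floor in every group.

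Mastitis against healthy asks how cells of an inflamed udder differ from those of a healthy one. GNLY, the lytic granule protein NK-lysin, was the member with a large difference: it rose by 3.61 ± 0.78 (SE, n = 6 and 6). Healthy GNLY lay within 0.5 of the floor on 5 of 6 arrays, 2 of them at it, so the size of the rise depends on where the floor lies. NCR1 was called as well, but within a fraction of a unit above the floor. PRF1, CTSW, KLRK1 and KLRB1 were not called. In all, 2 of 8 probe sets were called, both higher, where 19.5% of all probe sets were called, 10.2% higher and 9.35% lower. The members' median difference was 0.02, against 0.00 over all probe sets.

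GNLY read 5.12, 2.55, 6.96, 8.30, 8.43 and 6.80 on mastitis arrays 1 to 6. On endometritis arrays it read 3.66, 3.25, 2.53, 3.76, 2.47 and 4.33. On healthy arrays it read 2.78, 2.44, 2.58, 2.44, 2.77 and 3.50. Of the mastitis arrays 5 lay above every endometritis and healthy array, and mastitis 2 lay at the floor, so the groups overlapped through that array alone. No member probe set had groups without overlap, where 12.1% of all probe sets had none in mastitis against healthy, 0.204% in endometritis against healthy and 8.34% in mastitis against endometritis. GNLY averaged 6.36 ± 2.22 in mastitis, 3.33 ± 0.73 in endometritis and 2.75 ± 0.40 in healthy arrays (SD, n = 6 each). The rise over healthy had an adjusted p of 0.00379 in limma's test and a 95% interval of 1.96 to 5.25. It was called in all 18 fits that left out 1 array, with differences of 3.19 to 4.37. By an exact permutation test of the arrays it had p = 0.0108, or 0.0534 after adjustment over all probe sets, and did not pass.

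The rise of GNLY over healthy was also fitted with array measures taken into account. Adding the GAPDH measure as a covariate gave a rise of 3.12 that was not called (adjusted p = 0.0736), and with the neutrophil marker mean as a covariate it was 4.20 (adjusted p = 1), a fit in which 0 of 24016 probe sets were called. The neutrophil marker mean ran from 8.82 to 10.29 in mastitis, 4.37 to 7.30 in endometritis and 5.08 to 7.19 in healthy arrays. As mastitis does not overlap the other groups, a fit with this covariate cannot separate it from the group. The part of RNA integrity and of neutrophils in the result was not tested further. The 4 mastitis arrays with title numbers up to 120 are replicates 3 to 6, which read 6.80 to 8.43, and the 2 above 120 are replicates 1 and 2, at 5.12 and 2.55. Within title numbers up to 120 GNLY differed from healthy by 4.72 (adjusted p = 0.0495 in limma), and within those above 120 by 1.24 (adjusted p = 0.457). With the title number as a block the rise was 3.34 (adjusted p = 0.00229). On mastitis replicates 1 to 6 the neutrophil marker mean was 10.26, 10.29, 8.92, 10.20, 8.82 and 9.75. GNLY was lowest on replicate 2, highest on replicate 5 and second highest on replicate 4, at 8.30. How GNLY varied with the neutrophil mean was not tested.

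A further pair of probe sets is annotated to GNLY together with another locus, LOC104968634, which is separated from GNLY by 1 annotated gene in the reference assembly ARS-UCD2.0. They fall outside the members and cannot be given to either gene. The first of them averaged 6.66 ± 2.13 in mastitis, 3.27 ± 1.59 in endometritis and 2.52 ± 0.12 in healthy arrays (SD), and the second averaged 7.86 ± 2.36, 4.55 ± 1.61 and 3.69 ± 0.31. Against healthy they were 4.14 and 4.17 higher in mastitis (adjusted p = 0.00321 and 0.00523 in limma). For the first of them the mastitis and healthy arrays did not overlap. Across the 18 arrays their values correlated with the GNLY probe set at r = 0.94 and 0.96.

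PRF1, perforin, read 2.90, 2.43, 4.52, 4.71, 5.68 and 5.48 on mastitis arrays 1 to 6, and 2.98, 4.76, 2.91, 5.38, 2.78 and 3.98 on endometritis arrays. On healthy arrays it read 2.87, 2.46, 2.90, 2.81, 3.14 and 4.32. Mastitis replicates 3 to 6 lay above all healthy arrays, while replicates 1 and 2 lay among them. The mastitis mean was 1.20 ± 0.60 above healthy (SE), with a 95% interval of -0.08 to 2.49, and was not called (adjusted p = 0.202 in limma). It was called with array weights, at 1.80 (adjusted p = 0.0342). Within title numbers up to 120 the difference was 1.67, and within those above 120 it was -0.08, neither called (adjusted p = 0.171 and 1).

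CTSW encodes cathepsin W, a protease found in NK cells and cytotoxic T cells. Its first probe set was above the floor on all 18 arrays. It read 3.07, 3.09, 5.21, 4.59, 5.92 and 6.35 on mastitis arrays and 5.90, 9.77, 5.77, 10.42, 5.18 and 5.37 on endometritis arrays. On healthy arrays it read 5.38, 3.10, 7.52, 5.45, 4.67 and 7.93. Endometritis replicates 2 and 4 stood above every other array, and mastitis replicates 1 and 2 and healthy replicate 2 were the lowest. In mastitis CTSW was 0.97 ± 1.08 (SE) below healthy, a difference of -0.97 with a 95% interval of -3.26 to 1.31 (adjusted p = 0.591 in limma). The direction was not stable, as the difference was 0.27 with array weights. Without 1 array it was -1.49 to -0.52, the extremes being without healthy 2 and healthy 6. With the neutrophil covariate, which does not overlap between mastitis and healthy arrays, it was 2.00, a value that settles no direction.

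The second CTSW probe set ordered the arrays alike (r = 0.93 over the 18 arrays). It read 7.04 and 7.97 on endometritis replicates 2 and 4, and 3.51 to 3.59 on the other endometritis arrays. It ran from 3.09 to 3.85 in mastitis and from 2.44 to 4.94 in healthy arrays. Its mastitis difference from healthy was -0.31 (adjusted p = 0.86), and 0.14 with array weights and 0.98 with the neutrophil covariate.

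The receptor probe sets lay within 0.5 of the floor on most arrays. NCR1, the activating receptor NKp46 and a widely used NK cell marker in cattle, read 2.46, 2.71, 2.45, 2.51, 2.72 and 2.87 on mastitis arrays, 2.43 to 2.55 on endometritis arrays and 2.43 to 2.45 on healthy arrays. Only mastitis replicates 2, 5 and 6 passed the floor. Since all healthy arrays were at the floor, NCR1 in mastitis was at least 1.04-fold higher there (adjusted p = 0.045 in limma). The call was lost in 14 of the 18 fits without 1 array (highest adjusted p = 0.0992), among them those without mastitis 2, 5 or 6, and by the exact permutation test (adjusted p = 0.06). All 18 NCR1 values were within 0.5 of the floor.

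KLRK1, the activating receptor NKG2D, read 2.99, 2.64, 2.64, 2.50, 2.72 and 2.98 on mastitis arrays, and 3.67, 3.79, 2.47, 4.71, 3.10 and 3.01 on endometritis arrays. On healthy arrays it read 2.64, 2.46, 2.73, 2.51, 2.64 and 3.29. Mastitis and healthy arrays covered nearly the same range, with a difference of 0.03 ± 0.28 (SE; 95% interval -0.56 to 0.63, adjusted p = 1 in limma). Its sign turned without mastitis 1 or 6 or healthy 2 or 4, within title numbers up to 120 (-0.10) and with the GAPDH covariate (-0.28). KLRB1, a lectin-like receptor of the NKR-P1 family, stayed at or under the floor on 18 of 18 arrays at its first probe set and on 17 of 18 at its second. The exception was endometritis 6, at 2.57. Of all probe sets, 25.1% were at or under the floor on all 18 arrays.

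**Figure D2:**
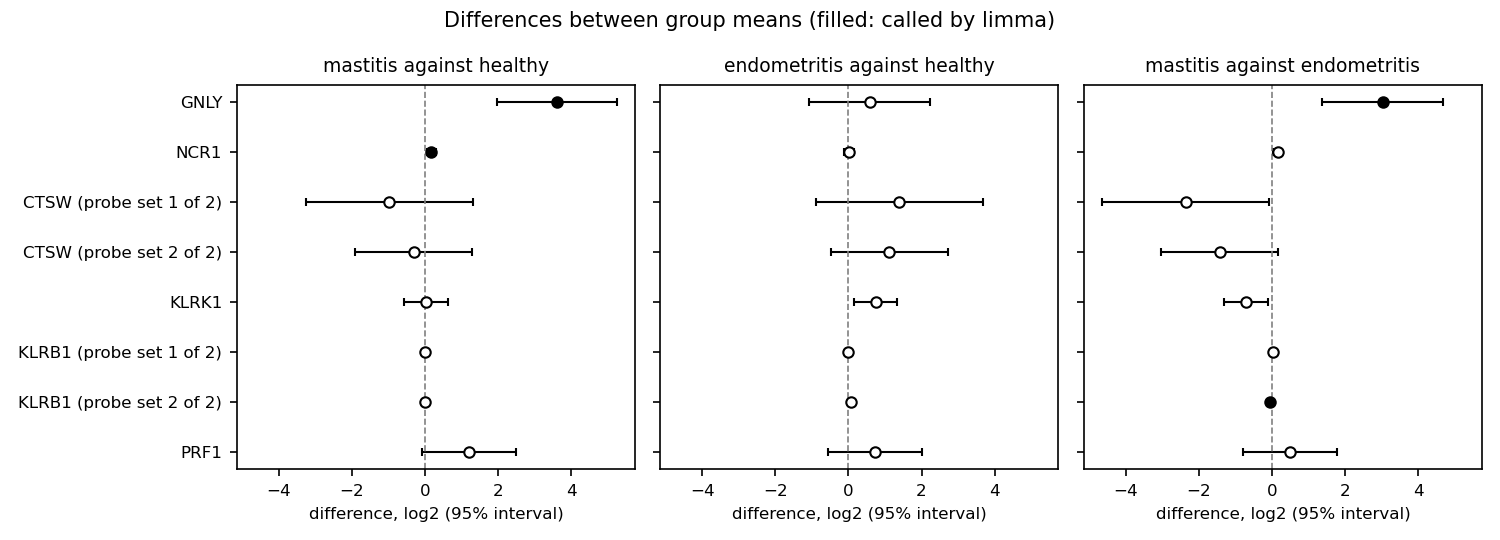
Difference between group means in log2 units (horizontal axis) with its 95% interval for each member probe set (rows) in the 3 comparisons, the group named first minus the other. Filled points were called by limma at an adjusted p under 0.05. GNLY lies at 3.61 and 3.03 in the comparisons of mastitis, while the called points of NCR1 and KLRB1 lie close to 0.

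Endometritis against healthy asks whether a disease outside the udder changes milk cells. No member was called, and neither was any other probe set: limma called 0% of 24016 in either direction, although 1047 had an unadjusted p under 0.05, 2 of them member probe sets. The exact permutation test called 0 as well. The members' median difference was 0.65, against 0.00 over all probe sets. KLRK1 was 0.75 ± 0.28 higher in endometritis (SE; adjusted p = 0.925, unadjusted p = 0.0173 in limma), and 3 of the 6 endometritis arrays, replicates 1, 2 and 4, lay above every healthy array. CTSW was 1.39 ± 1.08 higher at its first probe set (95% interval -0.89 to 3.68, adjusted p = 0.925). The difference was 0.72 without endometritis 4, the lowest among fits without 1 array. PRF1 was 0.72 ± 0.60 higher and GNLY 0.58 ± 0.78 higher (adjusted p = 0.925 and 0.98). The other member with an unadjusted p under 0.05 was KLRB1 at its second probe set, whose means of 2.51 in endometritis and 2.44 in healthy arrays were both under the floor.

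Endometritis replicates 2 and 4 carried most of these values. They held the highest CTSW, KLRK1 and PRF1 of the endometritis group. They also had the highest T cell marker means of all arrays, 4.78 and 5.19 log2 units over 13 markers, where the other endometritis arrays had 3.17 to 3.50. Linear intensity summed over those markers ran from 81.1 to 379 in mastitis, 135 to 1610 in endometritis and 88.6 to 600 in healthy arrays, and CD4 was at the floor on all 18 arrays. CD3E averaged 4.45 ± 1.38 and CD8A 4.68 ± 1.47 in endometritis, against 4.12 ± 0.77 and 3.84 ± 1.09 in healthy arrays (SD, n = 6 each), and of the 13 T cell markers 0 were called. The part of T cell content in the members' values was not tested. GNLY did not follow these arrays: its highest endometritis value was on replicate 6, at 4.33. That array also had the highest neutrophil marker mean of its group, 7.30, where the others had 4.37 to 5.63. In the healthy group the highest neutrophil mean, 7.19, was on replicate 1, where GNLY read 2.78, below replicate 6 at 3.50.

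**Figure D3:**
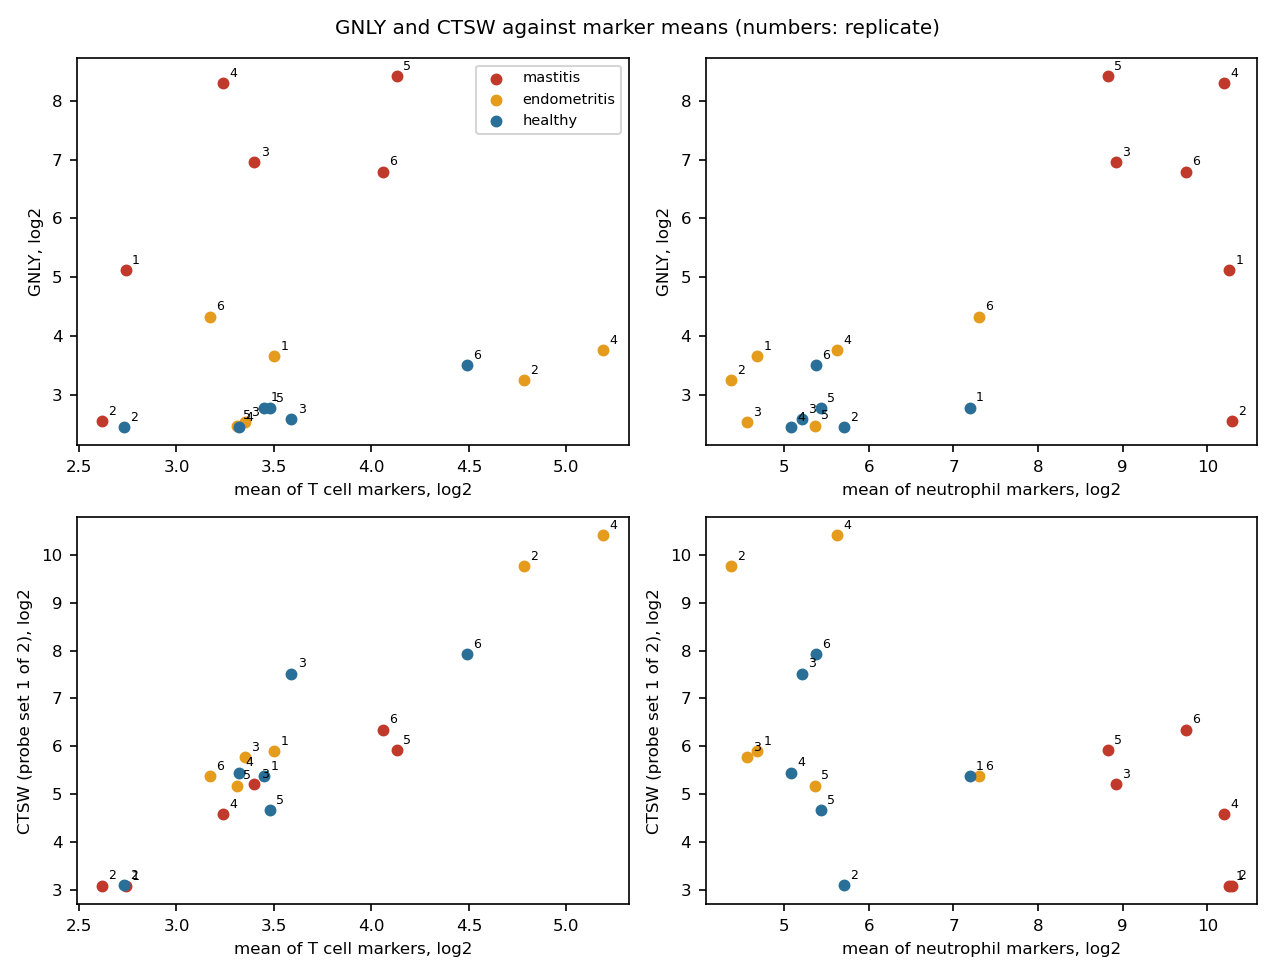
GNLY (upper row) and the first CTSW probe set (lower row), in log2 units, against the mean log2 value of 13 T cell markers (left) and 10 neutrophil markers (right), with 1 point per array and its replicate number, coloured by group. High CTSW goes with high T cell markers, up to 10.42 on endometritis 4. In mastitis the lowest GNLY, 2.55 on replicate 2, sits at the lowest T cell mean, 2.62, and the highest, 8.43 on replicate 5, at the highest, 4.13. On endometritis 4, with a T cell mean of 5.19, GNLY is 3.76.

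Mastitis against endometritis sets the diseases against each other. GNLY rose again, by 3.03 ± 0.78 (SE; adjusted p = 0.0149 in limma), against endometritis arrays of which 2 of 6 were at the floor. In total 2 of 8 probe sets were called, where 14.5% of all were called: 1 was higher, against 7.99% of all, and 1 lower, against 6.55%. The called fall was that of KLRB1 at its second probe set. Its means were 2.45 in mastitis and 2.51 in endometritis, both under the floor, so no fold is given, and the call was lost in 9 of the 18 fits without 1 array. The median difference of the members was -0.02. This comparison shares its mastitis arrays with that against healthy, so both rises of GNLY rest on the same 6 mastitis values.

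The call of GNLY against endometritis held in all 18 fits without 1 array, with differences of 2.61 to 3.79. It was not kept in the fit of the 12 arrays alone (adjusted p = 0.0637), by the exact permutation test (adjusted p = 0.0837), with the neutrophil covariate (3.67, adjusted p = 1) or within title numbers above 120, where the difference was 0.57 (adjusted p = 0.812). The differences of CTSW and KLRK1 had the other sign and were not called. The first CTSW probe set was lower in mastitis, at -2.36 ± 1.08 (SE), with all 6 mastitis arrays below the endometritis mean (adjusted p = 0.177), and was at 0.87 with the neutrophil covariate. KLRK1 was at -0.71 ± 0.28, again with all 6 below that mean (adjusted p = 0.108), and it was called only without endometritis 3 (adjusted p = 0.0288). PRF1 differed by 0.49 ± 0.60 (adjusted p = 0.668), by 0.21 to 0.86 without 1 array and by -1.30 within title numbers above 120, and NCR1 by 0.16 ± 0.06 (adjusted p = 0.0845).

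By group mean GNLY was highest in mastitis, which stood apart from the other groups in limma, while endometritis and healthy were not separated. PRF1 was in the order mastitis, endometritis, healthy and CTSW, at both probe sets, endometritis, healthy, mastitis, but no pair of neighbours was separated by limma. For PRF1 the place of mastitis against endometritis turned within title numbers above 120. For CTSW the place of mastitis against healthy turned with array weights and with the neutrophil covariate, though that covariate does not overlap between these groups. KLRK1 was highest in endometritis, and mastitis and healthy, 0.03 apart, have no settled order. NCR1 and KLRB1 lay at or near the floor and have no order.

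How the members varied together within a group was examined as well. Pearson's r and Spearman's rho were computed for the 3 pairs of CTSW (first probe set), PRF1 and GNLY in each group of 6 arrays, 9 tests in all, with exact two-sided permutation p-values. In mastitis, CTSW and PRF1 had r = 0.96 (exact p = 0.0111, adjusted 0.0333) and rho = 0.83 (exact p = 0.0583, adjusted 0.162). Without the 2 arrays farthest from the CTSW median r was 0.82. GNLY and PRF1 had r = 0.89 in mastitis (exact p = 0.00972, adjusted 0.0333; rho = 0.83, exact p = 0.0583, adjusted 0.162), which fell to 0.18 without the 2 arrays farthest from the GNLY median and so rests on them. In healthy arrays GNLY and PRF1 had r = 0.96 (exact p = 0.0111, adjusted 0.0333; rho = 0.81, exact p = 0.0722, adjusted 0.162), and 0.64 without the 2 farthest. Healthy GNLY was at the floor on 2 of these arrays and within 0.5 of it on 5, and healthy 6 was the highest for both genes, so that value rests largely on that array. In endometritis CTSW and PRF1 had r = 0.90 (exact p = 0.0292, adjusted 0.0656; rho = 0.83, exact p = 0.0583, adjusted 0.162), which turned to -0.22 without the 2 farthest arrays and so rests on them. For CTSW and GNLY r was 0.74, 0.21 and 0.62 in mastitis, endometritis and healthy arrays (exact p = 0.0917, 0.676 and 0.208, adjusted 0.144, 0.676 and 0.268), with rho of 0.54, 0.37 and 0.46 and r of -0.39, 0.09 and -0.41 without the 2 farthest arrays. The remaining pairs were CTSW and PRF1 in healthy arrays, with r = 0.71 (exact p = 0.0958, adjusted 0.144) and rho = 0.60, and GNLY and PRF1 in endometritis, with r = 0.53 (exact p = 0.272, adjusted 0.306) and rho = 0.71. Without the 2 farthest arrays their r was -0.41 and -0.21. No group has 6 arrays within a range of title numbers, so the tests could not be repeated there. In mastitis the 2 farthest arrays were replicates 1 and 2 for both CTSW and GNLY, those with title numbers above 120. The mastitis r values without them are therefore those of the 4 arrays with title numbers up to 120. Leaving out these arrays and that split of titles cannot be told apart.

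Genes with a like pattern over the 18 arrays were sought by Pearson's r, as a description, since arrays share groups and cell mix. CTSW at its first probe set was the member at least 1 above the floor on 9 or more arrays. Among 4623 named probe sets as bright, its nearest were STAT4, a signal transducer for interleukin 12 (r = 0.97), SYTL2, a granule transport protein (0.96), the T cell receptor chain CD3G (0.96), PLCG1 (0.96) and the T cell receptor chain CD3D (0.95). After the group means were taken off, the nearest were STAT4 (0.97), CD3D (0.97), CD3G (0.96), STN1 (0.96) and SYTL2 (0.95).

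A looser limit of 6 arrays, chosen after the values were seen, admitted 5174 probe sets and the members GNLY, PRF1 and the other CTSW probe set. The nearest to GNLY were EIF6 (r = 0.89), LTB, the lymphotoxin beta gene (0.88), the immunoproteasome genes PSMB9 and PSME1 (0.85 each) and the transcription regulator ID2 (0.85). After group means were taken off they were HSPE1 (0.84), CACYBP (0.81), NUDC (0.80), THOP1 (0.79) and PRDX2 (0.78), so no gene stood in both sets. The nearest to PRF1 were the chemokine receptor CXCR6 (r = 0.97), LOC510988 (0.93), the T cell kinase LCK (0.92), the T cell costimulator ICOS (0.92) and HOPX (0.92). CXCR6 (0.96), CD52 (0.94), LOC510988 (0.94), LOC100125415 (0.94) and LCK (0.93) led for PRF1 after group means were taken off. For the second CTSW probe set MADD (0.96), STAT4 (0.95), SERPINE2 (0.94), CD3D (0.94) and PLCG1 (0.93) were nearest, and after group means were taken off MADD (0.96), STAT4 (0.95), SERPINE2 (0.95), TP53INP1 (0.94) and GYPC (0.93).

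Other genes of the NK and cytotoxic pathway were counted from lists, with 1 probe set per gene. Across 9155 named genes, 11.3% were called higher and 15.8% lower in mastitis than in healthy arrays, with a median difference of -0.01. Of 22 measured NK receptors and adaptors 8 were higher, 0 lower and 14 not called, with a median of 0.35. FCGR3A, the Fc receptor CD16, rose by 3.13 ± 0.48, VAV1 by 2.87 ± 0.39, FCER1G by 2.82 ± 0.68 and LCP2 by 2.38 ± 0.30. TYROBP, the adaptor DAP12, rose by 2.48 ± 0.80 (adjusted p = 0.0404 in limma), CD244 by 2.46 ± 0.54, SLAMF7 by 2.07 ± 0.65 and SYK by 0.90 ± 0.29. Healthy means of FCGR3A (2.69) and SYK (3.04) were within 0.5 of the floor, so the size of their rises depends on where it lies. The same holds for UNC13D (2.76), IL15 (2.65), IL2RA (3.01) and CXCL10 (2.91), described below. The 14 not called went both ways, from -1.44 for ZAP70 (adjusted p = 0.373 in limma) to 0.65 for LCK (adjusted p = 0.521). Among them NCR3 was 0.53 higher (adjusted p = 0.259) and KLRD1, CD94, differed by -0.11 (adjusted p = 0.812). NCAM1, CD56, was at the floor on all mastitis and healthy arrays. Neutrophil markers rose in the same arrays, with a median difference of 4.32 over 10 genes, and their part in these counts was not tested.

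Of 14 granule enzymes and contents 2 were higher in mastitis than in healthy, 0 lower and 12 not called, with a median of 0.45. LTB, a cytokine rather than a granule protein, rose by 3.12 ± 0.67 (1 of 2 probe sets called) and LAMP1, a membrane protein of lysosomes and granules, by 2.16 ± 0.49 (1 of 2). GZMB, granzyme B, was at the floor on 5 of 6 mastitis and 5 of 6 healthy arrays. NKG7, a granule membrane protein, was 0.44 ± 0.56 higher (adjusted p = 0.652), and IFNG, interferon gamma, 0.45 ± 0.49 higher (adjusted p = 0.585). Of 12 genes of granule transport and release 7 were higher, 1 lower and 4 not called, with a median of 0.83. LYST, a regulator of lysosome size, rose by 2.29 ± 0.29, MYO9B by 2.32 ± 0.50 and RAB27A, which tethers granules at the membrane, by 2.03 ± 0.42. UNC13D, which primes granules for release, rose by 0.96 ± 0.20 (1 of 3 probe sets called) and EXOC1 by 1.15 ± 0.25 (2 of 4), while the fusion protein VAMP8 fell by 1.12 (1 of 2 probe sets called) and SYTL2 differed by -1.02 (adjusted p = 0.41). These transport proteins also serve neutrophils and other secreting cells.

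Cytokines that act on NK cells were measured next to their receptors. Of 14, 4 were higher in mastitis than in healthy, 0 lower and 10 not called, with a median of 0.04. IL15, which keeps NK cells alive, rose by 1.91 ± 0.35 and averaged 4.55 ± 1.05 in mastitis, against 2.65 ± 0.05 in healthy arrays (SD, n = 6 each). IL18 rose by 2.39 ± 0.60, the receptor chain IL2RA by 2.80 ± 0.23 and the shared chain IL2RG by 1.80 ± 0.39. IL12A, IL2, IL21 and IL18R1 were at the floor on every mastitis and healthy array. Of 6 transcription factors 3 were higher and 0 lower, with a median of 1.60. TOX rose by 2.80 ± 0.58, NFIL3, needed for NK cell development in mice, by 2.34 ± 0.50 and PRDM1 by 2.12 ± 0.42. ID2 was counted as not called, at 1.09 (adjusted p = 0.089 in limma), though 1 of its 2 probe sets was called in each mastitis comparison.

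Of 12 chemokines and homing receptors 2 were higher, 2 lower and 8 not called in mastitis against healthy, with a median of 1.21. CXCL10, a chemokine that draws NK and T cells, rose by 2.95 ± 0.68 and the integrin chain ITGAL by 1.07 ± 0.23 (1 of 2 probe sets called), while CXCL11 fell by 1.72 and ITGAE, an integrin chain of lymphocytes in epithelium, fell by 1.34. CXCR6 was 1.62 higher (adjusted p = 0.143). Of 5 measured target-cell ligands 2 were higher, CD48, the ligand of CD244, by 3.70 ± 0.60 and the adhesion molecule ICAM1 by 3.68 ± 0.65. MIC1, a ligand family member of KLRK1, was at the floor on all mastitis and healthy arrays. NECTIN2 was counted as not called, at -0.05 (adjusted p = 0.948 in limma), though 1 of its 3 probe sets was called. Of 13 T cell markers 0 were called, with a median of 0.02. CD3E was at -0.52 ± 0.55 (adjusted p = 0.573) and CD8A at 0.43 ± 0.70 (adjusted p = 0.743).

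**Figure D4:**
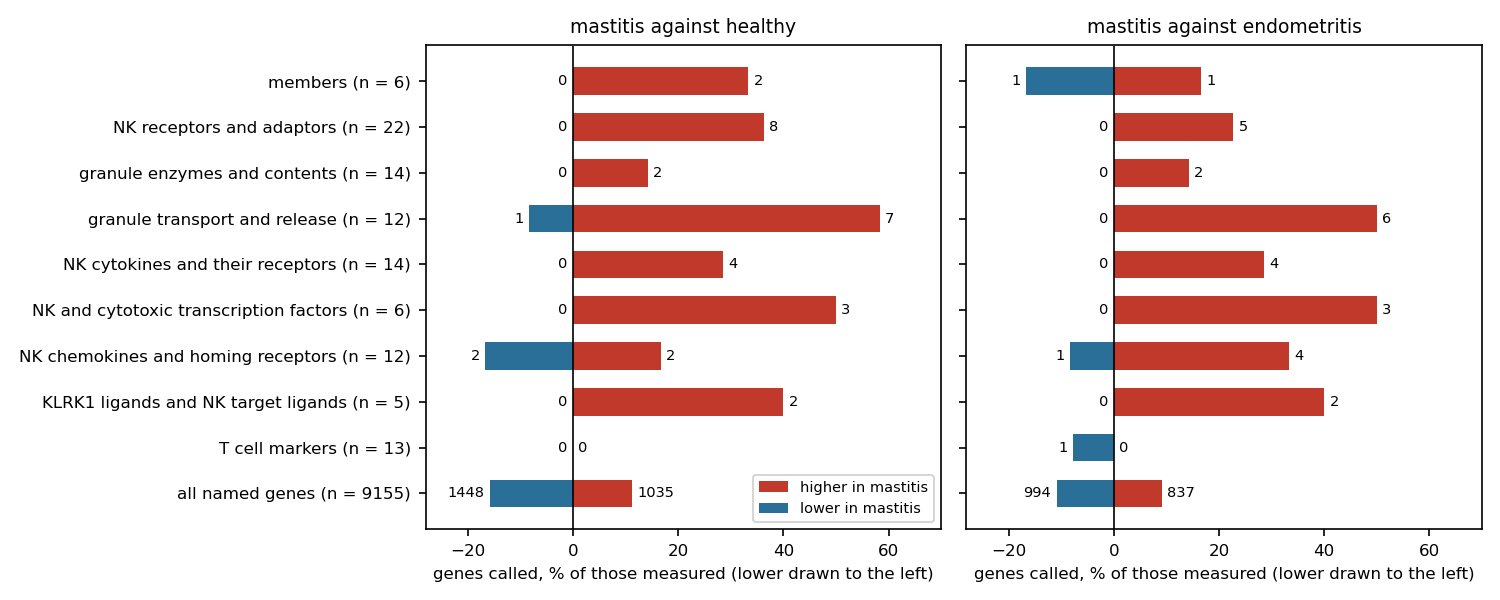
Share of measured genes called higher (right) or lower (left) in mastitis, in percent, for the 6 members, 7 pathway lists, T cell markers and all named genes, against healthy (left panel) and against endometritis (right panel). Numbers beside bars are counts of genes. Against healthy, 7 of 12 genes of granule transport and release were called higher and 0 of 13 T cell markers were called.

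Against endometritis, where 9.14% of named genes were called higher and 10.9% lower in mastitis, the lists gave similar counts, with the same mastitis arrays in both. Of NK receptors and adaptors 5 of 22 were higher, of granule enzymes and contents 2 of 14, of transport genes 6 of 12, of cytokines and receptors 4 of 14 and of transcription factors 3 of 6, with 0 lower in each. Chemokines and homing receptors gave 4 of 12 higher and 1 lower, ITGAE at -1.46 ± 0.40. Among the higher were CCL3 at 3.32 ± 0.80 (2 of 3 probe sets called) and CCL4 at 2.84 ± 0.82. Against healthy CCL3 was at 2.06 (adjusted p = 0.0907 in limma) and CCL4 at 1.06 (adjusted p = 0.441), neither called. Of target-cell ligands 2 of 5 were higher in mastitis than in endometritis. NECTIN2 was again counted as not called, though 2 of its 3 probe sets were called. Of T cell markers 1 of 13 was lower, TCF7, a transcription factor of less differentiated T cells, at -2.74 ± 0.85 (adjusted p = 0.0394). In endometritis against healthy 0 genes of any list were called.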

How the data were processed

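RNA from 18 milk cell samples was read on Affymetrix bovine arrays, 6 per group. Per the submitters' processing notes RMA, GCRMA and limma were used, with no version, role or order. Per the labels' protocols, RNA with an integrity number above 6 was labelled with a 3′ kit, which favours the 3′ end of transcripts. The authors deposited 1 table of normalised intensity, from 2.43 to 14.2, read here as log2 from its range, since the base is not given in the sources used here. Groups came from the labels. Of 24128 probe sets 112 controls were left out. No filter on dim values was set. Names came from the platform annotation (1 symbol for 13292 probe sets, several for 86, none for 10638), and 145 of 221 listed genes were measured. GZMA, HCST and IL2RB were not measured under those symbols. No build is named for the probe sets, so no coordinates are given.

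Groups were compared with limma 3.58.1 in R 4.3.3 (lmFit, eBayes, two-sided, 1 model for 18 arrays, 15 residual and 0.561 prior degrees of freedom), with Benjamini-Hochberg adjustment over 24016 probe sets. Where a group's arrays were all at the floor, the fold was computed against it as a lower bound. A gene with several probe sets was represented by that with the highest mean. Exact permutation tests enumerated all 924 arrangements of 6 against 6, smallest p 0.00216. Pairs and figures used Python 3.11.15 with SciPy 1.17.1. The code was tested on simulated data. Every member was named, with up to 6 called genes per list by smallest p and TYROBP, IL15, IFNG, GZMB, NKG7, CD3E and CD8A. For a member 1 above the floor on at least 9 arrays, the 5 genes nearest by Pearson's r were named. Genes outside that rule (SYK, NCR3, KLRD1, NCAM1, ZAP70, LCK, ID2, NECTIN2, IL12A, IL2, IL21, IL18R1 and MIC1) were chosen after their values were seen. The members and lists were chosen with earlier results of these data known. The number of arrays limits the precision. Alternatives were the 12 arrays of a comparison alone, dim probe sets left out, trended robust fitting, array weights, quantile normalization, scaling to hybridisation controls, the GAPDH and neutrophil covariates, the title number as a block and within its ranges, leaving out each array, and exact permutation. The looser limit for like patterns was added after the data were seen.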

Additional observations from a re-analysis of the deposited data

Results flagged for a closer look

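In each group of 6 arrays, the highest and lowest values of each member probe set were examined for a gap to the nearest other array that, as a share of the group's range, passed Dixon's 95% critical value. Of 24 such groups 6 held one. The chance rate of about 1 in 20 cannot be set against that count, as the probe sets share arrays and many values lie at the floor. Above the floor, 3 were found, all on healthy replicate 6, the highest healthy array for GNLY, at 3.50 against 2.78 for the next, for KLRK1, at 3.29 against 2.73, and for PRF1, at 4.32 against 3.14. That array also had the highest T cell marker mean of the healthy group, 4.49. The other 3 gaps lie at or under the floor, where values have no order: NCR1 read 2.43 on healthy 6, against 2.45 for the nearest array, and 2.55 on endometritis 4, against 2.45, and KLRB1 read 2.44 on healthy 1, against 2.43.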

How the results depend on the processing

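No paired analysis was possible because replicate numbers were given in accession order and pair no animals. In mastitis against healthy, 2 of 8 member probe sets were called, beside 4689 of all 24016. With array weights 3 were called (4353 of all). The count was 1 with the 12 arrays alone (4119 of all), scaling to hybridisation controls (2798), the title number block (5009) and within title numbers up to 120 (119), and 1 of 4 with dim probe sets left out (4149 of 7568). It was 0 with the GAPDH covariate (1428 of all), within title numbers above 120 (2347), by the exact permutation test (4566) and with the neutrophil covariate (0). Leaving out 1 array gave 1 to 2. In mastitis against endometritis, 2 were called, beside 3493 of all. With array weights 3 were called (2725 of all). The count was 1 with quantile normalization (3636) and scaling to hybridisation controls (1895), and 1 of 4 with dim probe sets left out (3538 of 7568). It was 0 with the 12 arrays alone (2678), within title numbers above 120 (2356), by the exact permutation test (3128) and with the neutrophil covariate (0). Leaving out 1 array gave 1 to 3. In endometritis against healthy the count was 0 in every fit run.

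Some directions turned. Called at -0.06 in mastitis against endometritis, the second KLRB1 probe set was at 0.08 with scaling to hybridisation controls (adjusted p = 0.873). The other turns were of differences that were not called in either fit. With array weights CTSW in mastitis against healthy was at 0.27 and 0.14 at its first and second probe sets. With the neutrophil covariate it was at 2.00 and 0.98, and in mastitis against endometritis at 0.87 at the first. KLRK1 in mastitis against healthy was at -0.28 with the GAPDH covariate and -0.10 within title numbers up to 120, and ran from -0.02 to 0.15 without 1 array. Within title numbers above 120 PRF1 was at -0.08 in mastitis against healthy and -1.30 in mastitis against endometritis. KLRB1, at the floor, turned to -0.01 (first probe set) and -0.05 (second) in mastitis against healthy and -0.01 (first) in mastitis against endometritis with the neutrophil covariate, to -0.00 (second) in mastitis against healthy with the GAPDH covariate, and in endometritis against healthy to 0.13 with scaling to hybridisation controls and 0.00 with the neutrophil covariate (first). NCR1 in endometritis against healthy ran from -0.00 to 0.02 without 1 array. The neutrophil covariate does not overlap between mastitis and the other groups, so turns with it in the mastitis comparisons settle no direction. The causes of all these turns were not tested. The covariate fits have fewer residual degrees of freedom and the subsets fewer arrays. A floor 0.5 higher put 85 of the members' values (59%) at or under it, in place of 62. Low signal limits NCR1, KLRB1 and KLRK1, and GNLY in healthy and endometritis arrays.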

Other observations

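On mastitis arrays 1 and 2, with neutrophil marker means of 10.26 and 10.29, the T cell marker means were 2.74 and 2.62, the lowest of that group. CTSW was at 3.07 and 3.09 and PRF1 at 2.90 and 2.43 on those arrays, while GNLY was at 5.12 on the first and 2.55 on the second. Mastitis 4, with a neutrophil mean of 10.20, had a T cell mean of 3.24, CTSW at 4.59, PRF1 at 4.71 and GNLY at 8.30. Arrays 1 and 2 are also the mastitis arrays with title numbers above 120, which cannot be told apart from their cell mix. How these values relate was not tested.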
